A study of Mus musculus with 8 samples.

Results

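The genes described here are the D cyclins and the Cdk inhibitors that act on them: the cyclins Ccnd1, Ccnd2 and Ccnd3, their kinases Cdk4 and Cdk6, the Cip/Kip inhibitors Cdkn1a, Cdkn1b and Cdkn1c, and the Ink4 inhibitor Cdkn2c. They were taken by name from a single-cell RNA-seq table of 27998 genes, in which all 9 were found. Their levels were followed across progenitor classes, from stem cells to cells in cycle, and across the 8 pools of mice. Bone marrow KL cells, sorted as CD117+ cells without the lineage antigens CD3, CD4, CD8, CD45R, CD11b, TER119 and GR1, came from female B6 mice aged 3-4 months. SPF mice stayed in a specific pathogen free facility, and CVT mice had spent 1 month co-housed in a conventional one. Each housing group had 10 mice, and sorted cells of 2 or 3 mice were mixed into each of 4 pools per group, so that the pool was the replicate and values of single mice could not be recovered.

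D cyclins are made in response to growth factors and bind Cdk4 or Cdk6, and the active kinase phosphorylates the retinoblastoma protein, which releases E2F factors and lets a cell leave G1. Ink4 proteins such as that of Cdkn2c (p18) occupy Cdk4 and Cdk6 and keep cyclins away, while the Cip/Kip proteins of Cdkn1a (p21), Cdkn1b (p27) and Cdkn1c (p57) bind assembled cyclin and kinase complexes. Hematopoietic stem cells are mostly quiescent, and their progeny divide often. All values below are mRNA levels. The proteins of this pathway are also controlled by phosphorylation, degradation and location, which were not measured.

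The table held UMI counts (1 count per captured molecule) of 29891 cells, between 1888 and 4845 cells and 19041749 and 59812346 UMIs a pool. A cell was given to a pool by the number that ends its name, matched to the number in the sample description. Of the cells, 1048 (3.51%) carried a barcode seen in more than 1 pool. Clusters were formed without the 9 members and named from fixed marker lists, which put 15872 cells (53.1%) into LTHSC-like (long-term stem cell, 1333 cells), MPP-like (multipotent, 1704), LMPP-like (lymphoid-primed, 2067), CMP-like (common myeloid, 3030), MEP-like (megakaryocyte-erythroid, 4197) and GMP-like (granulocyte-monocyte, 3541) classes. LTHSC-like cells held 13 of the 20 stem cell markers among their 100 most specific genes, and 83.9% ± 3.84 of them (SD, n = 8 pools) were low in S phase and mitosis genes, against 11.1% of MEP-like and of GMP-like cells. These marker and cycle genes helped form or define the classes and are a description. The median cell held 5538 UMIs in the LTHSC-like class and 18336 in the MEP-like class, so levels are given as CPM, a gene's UMIs scaled to the total UMIs of the same class and pool. CPM is thus a share of UMIs and not a number of molecules per cell, and the same holds for the differences below. The counts come from the 3' ends of transcripts and are compared between cells for 1 gene at a time, never between genes.

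Cdkn1c separated LTHSC-like cells from every other class. It stood at 20.02 CPM in the lowest LTHSC-like pool, 31.2 in the median and 41.4 in the highest, a mean of 30.9 ± 8.45 CPM (SD, n = 8). No other class came near these pools. The LMPP-like class was next with 3.53 ± 1.23 CPM, and the highest LMPP-like pool reached 5.42. The counts were small, with 8 to 78 UMIs of Cdkn1c in an LTHSC-like pool. Over all pools 262 UMIs in LTHSC-like cells gave 32.7 CPM (95% exact Poisson interval 28.9 to 37.0) and 20 UMIs in GMP-like cells gave 0.367 CPM (0.224 to 0.566), intervals that cover counting error only. LTHSC-like cells made up 4.46% of all cells and 2.38% of all UMIs but held 33.4% of the Cdkn1c UMIs. With every cell thinned to 2759 UMIs, 9.32% ± 3.46 of LTHSC-like cells had a UMI of Cdkn1c (15.8% unthinned), against 0.09% of GMP-like cells (0.42% unthinned), in which the few UMIs cannot be told from free RNA.

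**Figure D1:**
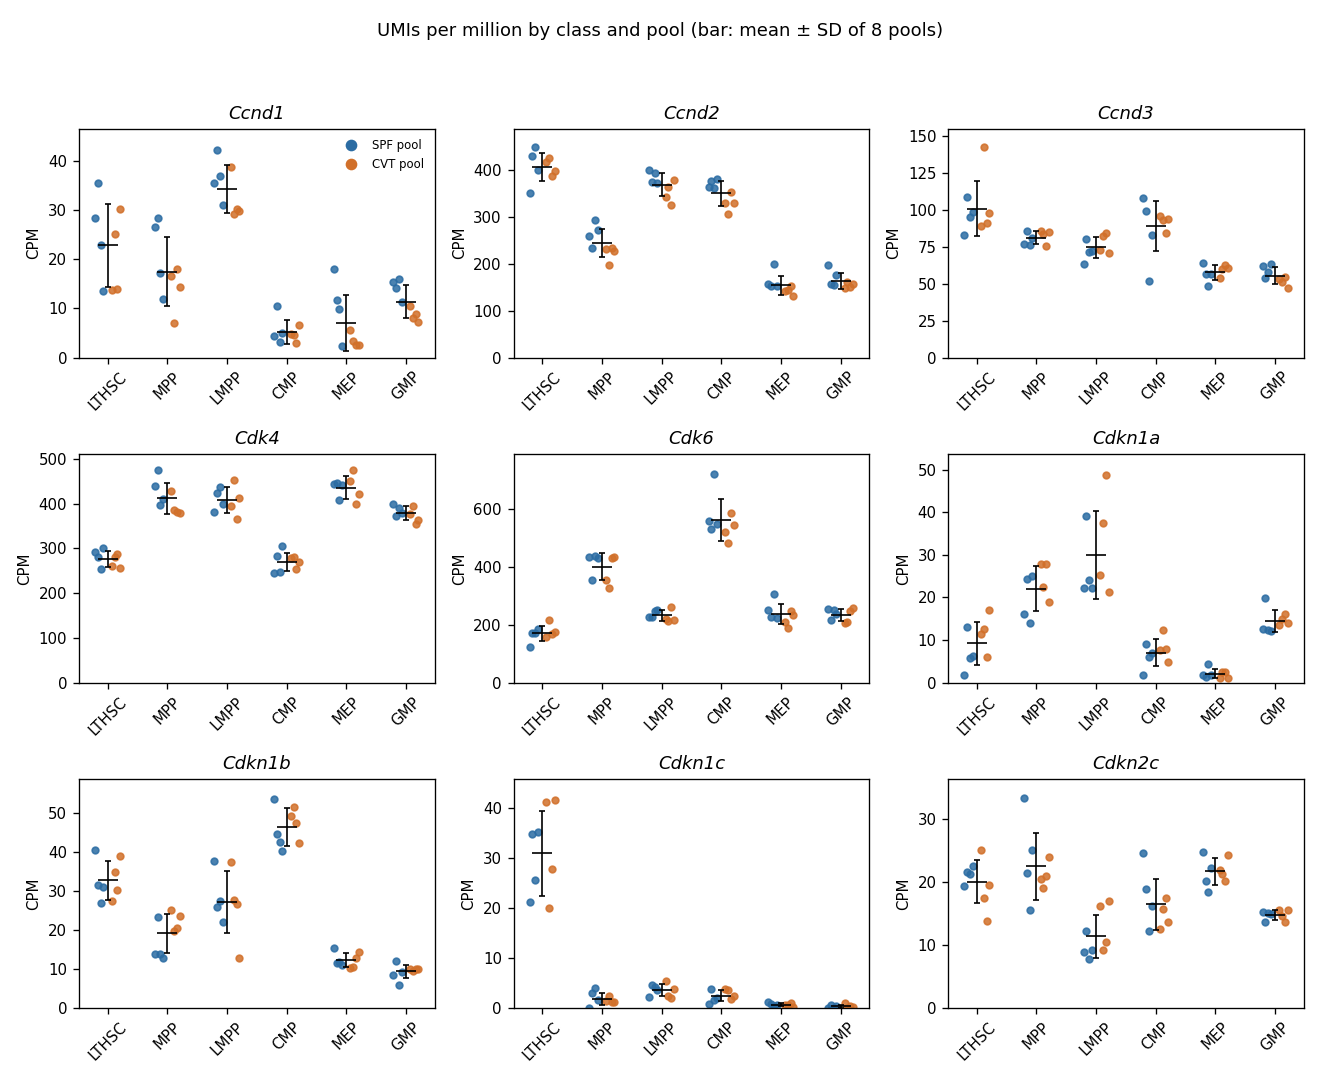
Level of each of the 9 genes in the 6 classes, in CPM on an axis that starts at 0 in each panel. A point is 1 pool (4 SPF, 4 CVT), and bars are the mean and SD of 8 pools. Cdkn1c is high in the LTHSC-like class alone (20.02 to 41.4 CPM), Ccnd2 falls from 407 CPM in LTHSC-like to 154 CPM in MEP-like cells, and Cdk4 and Cdk6 are low in LTHSC-like cells.

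Differences between LTHSC-like cells and each other class were tested on UMI counts summed per class and pool, with the pool as a block, by edgeR's quasi-likelihood test with Benjamini-Hochberg adjustment over 10385 genes, of which all 9 members were part. Log2 differences are LTHSC-like minus the other class, with the standard error. The classes are clusters of these same cells, and the background of the contrasts was high: 50.4% of genes passed against MPP-like cells, 36% against LMPP-like, 48.1% against CMP-like, 79.2% against MEP-like and 73.1% against GMP-like cells. Of the 9 members, 6, 7, 5, 9 and 8 passed in the same order, with no test against the background. The share was farthest above it against LMPP-like cells. Against CMP-like cells it lay near the background, and that count was 4 without the filter on low counts and 9 with coarser clusters. The median log2 difference over all genes was between -0.01 and 0.08.

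Cdkn1c had the largest difference of the members in each of the 5 contrasts. Its level in LTHSC-like cells was higher by 3.09 ± 0.21 on the log2 scale than in LMPP-like cells (edgeR adjusted p = 1.92e-21), by 3.52 ± 0.22 than in CMP-like cells, by 4.05 ± 0.24 than in MPP-like cells, by 5.40 ± 0.21 than in MEP-like cells and by 6.09 ± 0.25 than in GMP-like cells. The last of these rests on the 20 GMP-like UMIs. A cluster of 1556 cells that was led by Hlf, a stem cell regulator, but stayed unnamed under the marker rule held 7.92 CPM of Cdkn1c, between LTHSC-like and LMPP-like cells.

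**Figure D2:**
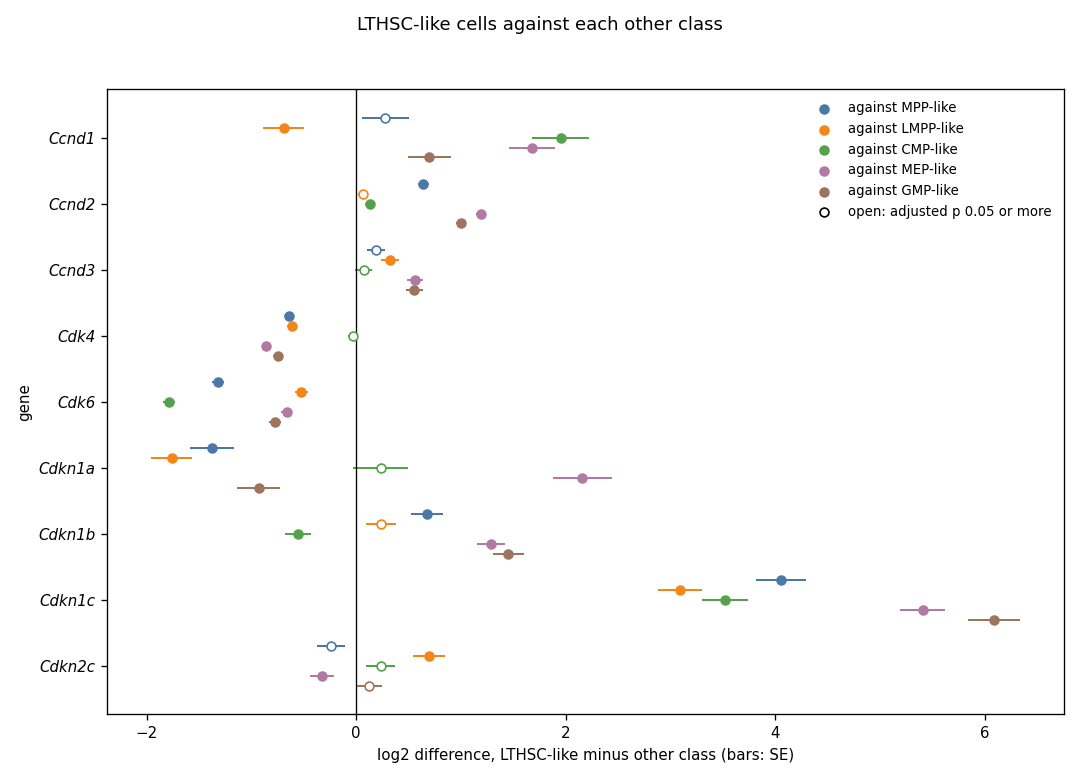
Log2 difference of each gene between LTHSC-like cells and each of 5 other classes (edgeR, standard error as bars, 8 pools), with filled points at an adjusted p under 0.05. Points right of 0 are higher in LTHSC-like cells. Cdkn1c lies between 3.09 and 6.09, Cdk6 lies between -1.79 and -0.52, and Cdk4 lies below 0 in all 5 contrasts, with an open point against CMP-like cells (-0.03).

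The other Cip/Kip inhibitors did not share this pattern. Cdkn1b, whose protein builds up in resting cells, was highest in CMP-like cells (46.5 ± 4.78 CPM), above LTHSC-like cells in 8 of 8 pools (LTHSC-like lowest 27.0, median 31.4, highest 40.6 CPM). LTHSC-like cells exceeded LMPP-like cells (27.3 ± 8.07 CPM) in only 6 of 8 pools, and the edgeR difference of 0.24 ± 0.14 did not pass (adjusted p = 0.191). Cdkn1b was lower in the remaining classes. LTHSC-like cells exceeded MPP-like cells by 0.67 ± 0.15 (edgeR adjusted p = 0.000129), MEP-like cells by 1.29 ± 0.14 and GMP-like cells by 1.45 ± 0.15, and the MPP-like difference shrank to 0.14 when cells were clustered without S phase and mitosis genes. The difference from CMP-like cells was -0.56 ± 0.12 (adjusted p = 0.000109) and did not pass with those clusters (-0.27, adjusted p = 0.0809).

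Cdkn1a, the inhibitor best known as a p53 target, ran the other way. LTHSC-like pools held 1.76 CPM at the lowest, 8.87 at the median and 17.1 at the highest, from 1 to 21 UMIs a pool, so that these pools are the least precise of the members. LMPP-like cells (30.01 ± 10.3 CPM) and MPP-like cells (22.1 ± 5.25 CPM) held most. LTHSC-like cells were lower than LMPP-like cells by 1.76 ± 0.20 on the log2 scale (edgeR adjusted p = 7.26e-12), lower than MPP-like cells by 1.37 ± 0.21 and lower than GMP-like cells by 0.93 ± 0.20. They were higher than MEP-like cells (2.06 ± 1.06 CPM) by 2.16 ± 0.28, and against CMP-like cells the difference of 0.23 did not pass (adjusted p = 0.49), though it was 0.96 and passed with coarser clusters.

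Of the D cyclins, Ccnd2 and Ccnd3 had their highest mean of the 6 classes in LTHSC-like cells. LTHSC-like pools held 351 CPM at the lowest, 409 at the median and 449 at the highest (mean 407 ± 30.3). The means then went down in the order LMPP-like (369 ± 24.6), CMP-like (350 ± 26.0), MPP-like (244 ± 30.02), GMP-like (163 ± 16.7) and MEP-like (154 ± 20.01). LTHSC-like exceeded LMPP-like cells in 7 of 8 pools, LMPP-like exceeded CMP-like cells in 5 of 8, and CMP-like exceeded MPP-like and MPP-like exceeded GMP-like cells in 8 of 8. By edgeR, LTHSC-like cells were higher than MEP-like cells by 1.19 ± 0.05, than GMP-like cells by 0.996 ± 0.048 and than MPP-like cells by 0.64 ± 0.05 (adjusted p = 2.92e-18), whereas the difference from LMPP-like cells did not pass (0.07 ± 0.05, adjusted p = 0.291). The difference of 0.13 ± 0.05 from CMP-like cells (adjusted p = 0.0196) was lost without SPF pool 2, CVT pool 3 or CVT pool 4, without the filter on low counts, without the cells of high doublet score and in clusters made without cycle genes (0.07 to 0.11), and turned to -0.32 with coarser clusters.

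Of the 6 classes, Ccnd1 was highest in LMPP-like cells (34.1 ± 4.86 CPM), followed by LTHSC-like cells, whose pools spread from 13.5 to 35.5 CPM around a median of 23.9. LMPP-like cells exceeded LTHSC-like cells in 7 of 8 pools, with a difference of -0.69 ± 0.19 (edgeR adjusted p = 0.00284, and 0.062 without the pool as a block). LTHSC-like cells were above CMP-like cells (5.23 ± 2.40 CPM) by 1.95 ± 0.28, above MEP-like cells (6.98 ± 5.67 CPM) by 1.68 ± 0.22 and above GMP-like cells (11.4 ± 3.37 CPM) by 0.70 ± 0.21. Against MPP-like cells (17.4 ± 7.06 CPM) the difference of 0.28 ± 0.22 did not pass (adjusted p = 0.316).

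Ccnd3 was the flattest of the cyclins over the 6 classes, from 101 ± 18.6 CPM in LTHSC-like to 55.4 ± 5.59 CPM in GMP-like cells. LTHSC-like cells exceeded MEP-like cells by 0.56 ± 0.08 (edgeR adjusted p = 8.65e-10), GMP-like cells by 0.55 ± 0.08 and LMPP-like cells by 0.32 ± 0.09 (adjusted p = 0.00172, lost at 0.11 with coarser clusters). The differences from MPP-like cells (0.19 ± 0.09, adjusted p = 0.0531, but 0.0390 without SPF pool 1, 0.0440 without CVT pool 6, 0.0426 without called doublets and 0.0484 without the highest doublet scores) and CMP-like cells (0.07, adjusted p = 0.493) did not pass. Larger levels lay outside the 6 classes. Pooled over the table, the B-like cluster (168 cells, led by the pre-B receptor gene Vpreb3) held 580 CPM of Ccnd3, a cluster led by the globin gene Hba-a1 (137 cells) held 426 CPM, a dendritic-like cluster of 79 cells held 263 CPM and 2 late granulocyte-like clusters, led by Ifitm6 and Fcnb, held 208 and 218 CPM. In those last 2 clusters Ccnd2, at 7.85 and 24.6 CPM, and Cdk6, at 19.5 and 56.1 CPM, were below their pooled levels in every cluster of the 6 classes. Ccnd1 had its own high point in that dendritic-like cluster, with 281 CPM from 129 UMIs.

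The kinases were lowest, or close to lowest, in LTHSC-like cells. Cdk6 held 124 CPM in the lowest LTHSC-like pool, 171 in the median and 215 in the highest, and 562 ± 71.4 CPM in CMP-like, 401 ± 47.0 in MPP-like, 236 ± 34.5 in MEP-like, 235 ± 21.3 in GMP-like and 232 ± 18.3 in LMPP-like cells. The last 3 could not be ordered, since MEP-like exceeded GMP-like cells in 4 of 8 pools and GMP-like exceeded LMPP-like cells in 3. LTHSC-like cells were lower than CMP-like cells by 1.79 ± 0.06 on the log2 scale (edgeR adjusted p = 1.61e-41), lower than MPP-like cells by 1.32 ± 0.06, lower than GMP-like cells by 0.78 ± 0.06, lower than MEP-like cells by 0.66 ± 0.06 and lower than LMPP-like cells by 0.52 ± 0.06. The last 2 depended on how finely cells were clustered, and were -0.01 and -0.08 with the coarser clusters.

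Cdk4 stood at 254, 281 and 300 CPM in the lowest, median and highest LTHSC-like pool, close to CMP-like cells (270 ± 20.4 CPM), which were higher in 5 of 8 pools. It was higher in GMP-like (379 ± 15.6), LMPP-like (408 ± 29.1), MPP-like (412 ± 33.7) and MEP-like cells (436 ± 25.05). The LTHSC-like pools did not overlap with any of these 4 classes. The edgeR differences were -0.61 ± 0.05 from LMPP-like, -0.65 ± 0.05 from MPP-like, -0.75 ± 0.04 from GMP-like and -0.86 ± 0.04 from MEP-like cells (adjusted p = 1.29e-30), and -0.03 from CMP-like cells (adjusted p = 0.583).

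Promoters of 6 of the 9 members (9 promoters in all) were found by symbol in the RefSeq promoter table of the GRCm38.p6 build. Those of Ccnd1, Ccnd2 and Cdkn1c were not among them. The 250 bases before each start were searched for CACGTG, the E-box bound by Myc and its relatives, which reads the same on both strands, and for TTCCCGC or its reverse GCGGGAA, the core of many E2F sites. The motifs can share at most 1 base, and no matches shown here overlap. Cdk4 and Cdkn2c are shown since in the main fits these were the 2 members that passed as higher in cells high in cycle genes in more than 1 class (below). Ccnd1 also did so without the filter on low counts. The capitals mark the motifs. The Cdk4 promoter, chr10:127063285-127063534 on the plus strand, held CACGTG 4 times, with its first base at -172, -118, -98 and -11 from the start. The Cdkn2c promoter, chr4:109666757-109667006 on the minus strand, held TTCCCGC at -25.
Cdk4: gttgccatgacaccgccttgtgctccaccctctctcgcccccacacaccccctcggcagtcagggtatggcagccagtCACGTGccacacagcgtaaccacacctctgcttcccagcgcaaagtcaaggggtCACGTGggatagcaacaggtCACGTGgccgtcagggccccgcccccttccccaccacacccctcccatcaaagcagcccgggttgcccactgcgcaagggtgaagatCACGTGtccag
Cdkn2c: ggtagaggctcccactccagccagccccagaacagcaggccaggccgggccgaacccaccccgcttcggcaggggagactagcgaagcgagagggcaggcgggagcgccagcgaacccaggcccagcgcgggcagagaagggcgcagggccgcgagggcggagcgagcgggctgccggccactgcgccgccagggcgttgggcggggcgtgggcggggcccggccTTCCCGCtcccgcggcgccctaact

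CACGTG occurred in 6.02% of 32851 promoters of this length, and only 7 of them held it 4 or more times. TTCCCGC or its reverse occurred in 3.82%. Of the other members, Cdk6 held CACGTG once, at -220, and the promoters of Cdkn1a, Cdkn1b and Ccnd3 and a second Cdkn2c start held neither. A motif match is a description of the sequence.

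Cdkn2c was spread over the classes with little order. LTHSC-like pools held 13.9, 20.4 and 25.1 CPM at the lowest, median and highest, MPP-like cells 22.5 ± 5.29, MEP-like cells 21.7 ± 2.15, CMP-like cells 16.5 ± 4.05, GMP-like cells 14.8 ± 0.78 and LMPP-like cells 11.4 ± 3.48 CPM. LTHSC-like cells were higher than LMPP-like cells by 0.70 ± 0.15 (edgeR adjusted p = 0.000132), which turned to -0.33 with coarser clusters, and lower than MEP-like cells by 0.33 ± 0.12 (adjusted p = 0.0077). The other 3 contrasts did not pass, although those with MPP-like (-0.26) and CMP-like cells (0.30) did with coarser clusters, and the MPP-like one also with the filter on cells (-0.32, adjusted p = 0.0424). As with Ccnd3, its high points lay elsewhere, with 124 CPM in the B-like cluster, 102 CPM in the dendritic-like cluster, 88.98 CPM in a monocyte-like cluster led by S100a4 and 84.99 CPM in the globin-led cluster.

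Partners of the pathway were read in lists of known members. Against MPP-like cells, LTHSC-like cells were lower for 6 of 13 tested genes in a list of G1/S cyclins, kinases and related genes, and higher for 2. Ccng2, a related gene, was among the higher ones (0.61 ± 0.16). Ccne2 and Ccne1, the E cyclins that act after the D cyclins, were lower by 1.42 ± 0.21 and 1.32 ± 0.36 on the log2 scale. Of 19 genes of the RB family and E2F factors, 11 were lower and 3 higher, led by E2f8 (-1.82 ± 0.23), Mybl2 (-1.66 ± 0.24) and E2f1 (-1.63 ± 0.14). Of 16 genes that degrade G1 regulators, 6 were lower and 2 higher, led by Cks1b, a cofactor of the Skp2 ubiquitin ligase that acts on Cdkn1b (-1.36 ± 0.08). Of all genes tested, 23.2% were lower and 27.2% higher in this contrast.

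A list of other genes with Cdkn names held 4 tested genes: Cdkn2d, Cdkn3, Cdkn2aip and Cdkn2aipnl. The last 2 share the name but are not Cdk inhibitors. In this list 1 was higher and 1 lower than in MPP-like cells, 2 and 0 against LMPP-like, 0 and 3 against CMP-like, 2 and 2 against MEP-like and 1 and 2 against GMP-like cells. Cdkn2d, the Ink4 relative of Cdkn2c, was higher in LTHSC-like than in MPP-like cells by 1.17 ± 0.13 and higher than in MEP-like cells by 1.48 ± 0.11, though lower than in CMP-like cells by 0.35 ± 0.10. Cdkn3, a phosphatase of mitotic cells, was lower than in MEP-like cells by 3.28 ± 0.28. Of 25 upstream genes, 13 were higher and 3 lower than in MPP-like cells, and 17 were higher against both MEP-like and GMP-like cells, where 41.8% and 39% of all genes were higher. Mycn, a Myc family factor, led the list (3.25 ± 0.14 against MPP-like and 5.87 ± 0.15 against MEP-like cells), and the stem cell factor Meis1 was also higher (1.11 ± 0.06 and 4.65 ± 0.07). Of 18 tested p53 targets, 9 were higher and 4 lower than in MPP-like cells, with Perp, like Cdkn1a, lower (by 2.04 ± 0.35). Against MEP-like cells, where Cdkn1a was higher, 8 were higher and 7 lower. Of 15 handling stress genes, 10 were higher in LTHSC-like than in MPP-like cells (median 0.71) and 11 against GMP-like cells (median 1.45), whereas against CMP-like cells 3 were higher and 8 lower (median -0.27). The part of this in the differences above was not tested.

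Each cell was then placed by its UMIs of 44 S phase and 48 mitosis genes after thinning to 2759 UMIs, with low meaning at most 9 and high at least 20 such UMIs, which took in 36.3% and 33.6% of KL cells. No member is in these lists. Of all cells, 6.66% lay within 1 UMI of the low limit and 5.49% within 1 UMI of the high one, so these are ranges of a continuous score and not cell types. Within a class, high cells were compared with low cells of the same pool by edgeR's quasi-likelihood test with the pool as a block. Pools with at least 20 cells in each state entered, which were 8 for MPP-like and MEP-like, 6 for LMPP-like and CMP-like and 7 for GMP-like cells. The share of genes that passed was 35.7% in MPP-like, 40.2% in LMPP-like, 33.2% in CMP-like, 53.5% in MEP-like and 17% in GMP-like cells, and 4 of 7, 4 of 7, 3 of 6, 5 of 6 and 1 of 7 tested members passed. Cdkn1c was too low to be tested in any of these classes. Some classes joined clusters with unlike shares of low cells. Of the MEP-like clusters, that led by Car1 (1316 cells) had 31.2% low cells, and the others had 0 to 2.34%. Of the CMP-like clusters, those led by Pdzph1, Isg15 and Hist1h2bc had 74.6%, 51.1% and 19.6%. High against low within these classes is thus in part a comparison of clusters, and the parts were not tested apart. Handling stress genes were lower in high cells (8 of 12 tested in MPP-like, 10 of 13 in MEP-like), and their part in these differences was not tested.

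Cdk4 was higher in cells high in cycle genes in 4 of the 5 classes. It rose from 314 ± 29.2 to 488 ± 56.5 CPM in MPP-like cells (log2 0.53 ± 0.06, edgeR adjusted p = 1.38e-14), with 8 of 8 pools up, and from 338 ± 24.2 to 545 ± 47.9 CPM in LMPP-like cells (0.68 ± 0.06, 6 of 6 pools). In MEP-like cells it went from 289 ± 39.5 to 459 ± 21.6 CPM (0.53 ± 0.05, 8 of 8 pools) and in CMP-like cells from 240 ± 14.5 to 323 ± 16.8 CPM (0.38 ± 0.07, 6 of 6 pools). GMP-like cells showed a difference of only 0.08 that did not pass (adjusted p = 0.212), though high cells were above low cells in 7 of 7 pools. Clusters that stayed unnamed took no part. One of 1461 cells, nearest to the GMP marker list, held 0% low and 86.7% high cells, with 453 CPM of Cdk4 and 43.5 CPM of Cdkn2c. Another of 889 cells, nearest to the LMPP list, held 95.7% high cells, with 483 and 40.3 CPM.

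Cdk6 went the opposite way in most classes. It fell by 0.88 ± 0.05 on the log2 scale in high MEP-like cells (edgeR adjusted p = 4.7e-27, from 367 ± 73.9 to 212 ± 20.4 CPM, 8 of 8 pools), by 0.59 ± 0.06 in CMP-like cells (6 of 6 pools), by 0.31 ± 0.06 in MPP-like cells (8 of 8) and by 0.29 ± 0.06 in GMP-like cells (7 of 7). The LMPP-like difference of 0.09 did not pass (adjusted p = 0.375), but passed at 0.44 with the coarser clusters and at 0.26 without cycle genes in the clustering. The MPP-like difference was 0.044 when S phase and mitosis genes were kept out of the clustering.

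**Figure D3:**
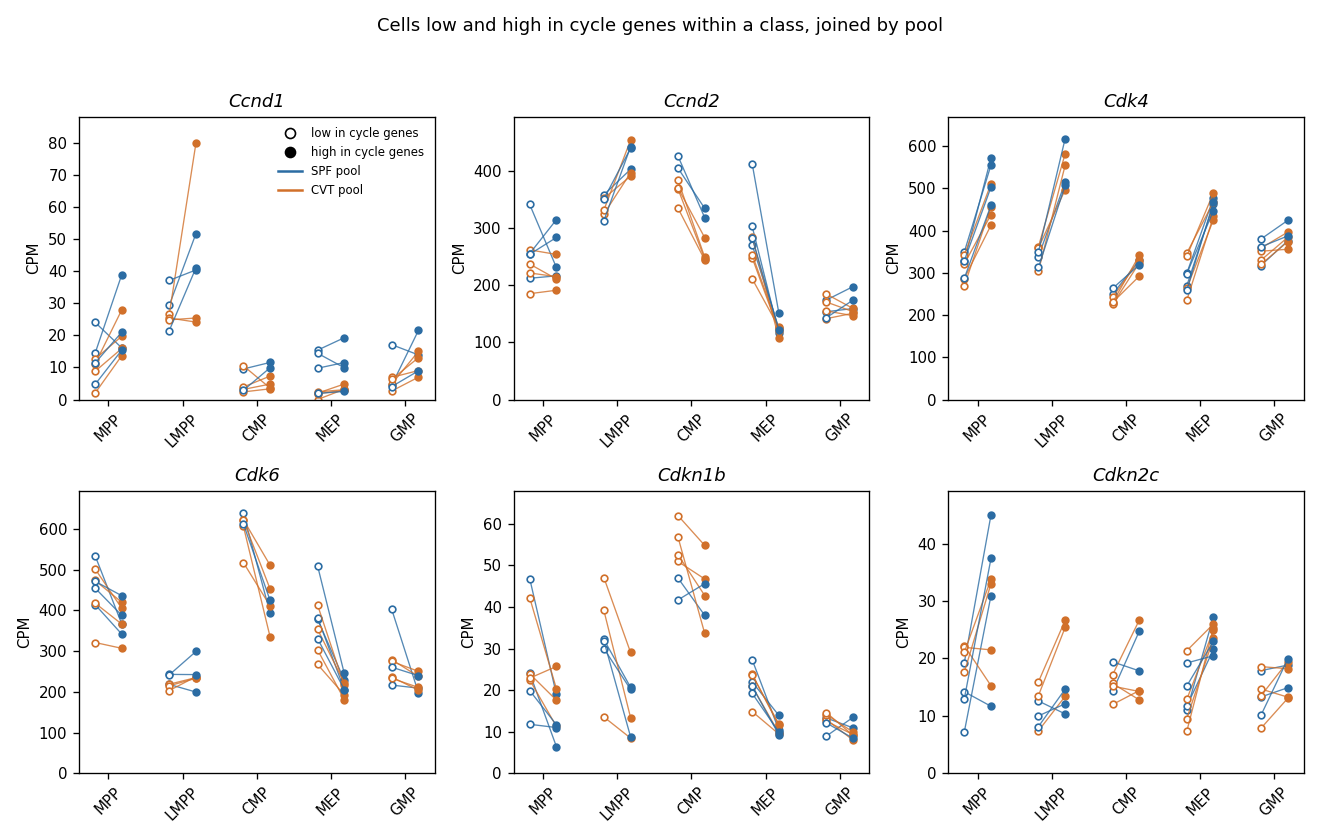
Level of 6 of the genes in cells low and high in S phase and mitosis genes, in CPM, for 5 classes. A line joins the low cells (open) and the high cells (filled) of 1 pool, with 6 to 8 pools a class, blue for SPF and orange for CVT. Cdk4 lines rise, Cdk6 and Cdkn1b lines mostly fall, and Ccnd2 falls steeply in MEP-like cells, from 284 to 124 CPM.

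Ccnd2 did not behave alike in the classes. In MEP-like cells it dropped from 284 ± 59.3 to 124 ± 12.6 CPM (log2 -1.27 ± 0.06, edgeR adjusted p = 1.58e-33), and all 8 pools fell. This was a drop in share: 433 low cells held 1133 UMIs of Ccnd2 and 2676 high cells held 7368, no fewer per cell. The same held in these cells for Cdk6 (1452 and 12248 UMIs) and Cdkn1b (88 and 627 UMIs). Per cell Cdk6 was also no lower in high CMP-like (1166 UMIs in 323 cells against 6317 in 1952), MPP-like (1948 in 486 against 1757 in 509) and GMP-like cells (3687 in 1020 against 1233 in 366). The Car1-led MEP-like cluster held 283 CPM of Ccnd2 and 338 CPM of Cdk6. The other MEP-like clusters held 66.8 to 150 CPM and 140 to 248 CPM. As a share, Ccnd2 fell in CMP-like cells (382 ± 31.7 to 280 ± 39.6 CPM, -0.50 ± 0.07, 6 of 6 pools). Per cell it was no lower in high CMP-like cells (805 UMIs in 323 cells against 3893 in 1952). The CMP-like clusters led by Pdzph1, Isg15 and Hist1h2bc held 385, 341 and 210 CPM of Ccnd2 and 634, 408 and 368 CPM of Cdk6. Ccnd2 rose in LMPP-like cells (339 ± 18.04 to 422 ± 27.2 CPM, 0.30 ± 0.06, 6 of 6 pools), where the coarser clusters gave -0.42. The differences in MPP-like (-0.10, adjusted p = 0.295) and GMP-like cells (-0.09, adjusted p = 0.419) did not pass. Ccnd1 passed the filter on low counts only in LMPP-like cells, where it rose by 0.75 ± 0.19 (adjusted p = 0.000483, 5 of 6 pools) but not without CVT pool 3 (adjusted p = 0.0703) or by DESeq2 (0.077), and turned to -0.63 with the coarser clusters. Without that filter Ccnd1 was also higher in high MPP-like cells (11.1 ± 6.66 to 21.1 ± 8.51 CPM, 7 of 8 pools, log2 0.98, adjusted p = 0.00266) and GMP-like cells (6.61 ± 4.84 to 12.6 ± 4.92 CPM, 6 of 7 pools, 0.82, adjusted p = 0.0234). Ccnd3 passed in no class, but did in GMP-like cells without CVT pool 4 (-0.40, adjusted p = 0.0181), in MEP-like cells without the filter on low counts (0.28) and in CMP-like cells clustered without cycle genes (0.35).

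Of the inhibitors, Cdkn1b was lower and Cdkn2c higher in high cells wherever they passed. Cdkn1b fell by 1.12 ± 0.19 in MEP-like cells (21.6 ± 3.66 to 10.7 ± 1.59 CPM, edgeR adjusted p = 2.28e-07, 8 of 8 pools), by 0.91 ± 0.23 in LMPP-like cells (6 of 6 pools) and by 0.75 ± 0.23 in MPP-like cells (7 of 8 pools, adjusted p = 0.00593, but 0.0504 without SPF pool 2 and 0.0599 by DESeq2). In CMP-like (-0.32, adjusted p = 0.0756, and 0.0446 without SPF pool 8) and GMP-like cells (-0.55, adjusted p = 0.0716) it did not pass. Per cell, high cells held fewer Cdkn1b UMIs in MPP-like (82 in 486 cells against 95 in 509) and LMPP-like cells (42 in 216 against 268 in 1236). Cdkn2c rose by 0.79 ± 0.19 in MEP-like cells (13.5 ± 4.80 to 24.01 ± 2.30 CPM, adjusted p = 0.000184, 8 of 8 pools) and by 0.69 ± 0.22 in MPP-like cells (adjusted p = 0.00747, 5 of 8 pools), the latter not without SPF pool 8 (adjusted p = 0.1005) nor by DESeq2 (0.148). In CMP-like (0.19) and GMP-like cells (0.20) it did not pass. Over all KL cells, which mix classes and unnamed clusters, Cdkn2c stood at 15.3 ± 2.21 CPM in low and 36.5 ± 5.98 CPM in high cells, without a test. Its promoter is printed above, and a link between the motif and these levels was not tested. Cdkn1a, tested in MPP-like, LMPP-like and GMP-like cells, passed in none, except in LMPP-like cells clustered without cycle genes (0.37).

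The partner lists held many genes that are themselves induced in late G1 and S phase. In MEP-like cells Ccne1 rose by 2.82 ± 0.16, Ccne2 by 2.70 ± 0.26, Mybl2, a target of E2F, by 4.34 ± 0.32 and Cks1b by 1.78 ± 0.07, whereas Cdkn2d fell by 0.59 ± 0.17, as Cdkn1b did. Of 16 upstream genes, 10 fell and 1 rose there, where 27.3% of all genes fell and 26.2% rose, with Egr1, an immediate early factor, lower by 2.35 ± 0.18 and Myc lower by 0.97 ± 0.07. In MPP-like cells E2f1 rose by 2.18 ± 0.19, and Myc fell by 0.58 ± 0.08.

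Too few LTHSC-like cells were in cycle for the same comparison: 3.60% ± 1.78 were high (SD, n = 8), and no pool held 20 such cells. The class was therefore divided, after these counts were seen, at its own median of 5 cycle gene UMIs, into 554 cells above and 779 cells at or below it, so that most cells on both sides were still low by the limits above. In this comparison 12.3% of 5173 genes and 4 of 7 tested members passed. Cdk4 rose from 230 ± 33.5 to 333 ± 31.5 CPM (log2 0.50 ± 0.07, edgeR adjusted p = 7.99e-09) and Cdk6 from 142 ± 34.9 to 206 ± 24.4 CPM (0.54 ± 0.09, adjusted p = 5.03e-07), each in 8 of 8 pools. Cdk6 thus rose here with cycle genes, while within MPP-like, CMP-like, MEP-like and GMP-like cells it fell. The difference between these effects was not tested.

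Cdkn1c and Ccnd2 went down, but less firmly. Cdkn1c ranged from 12.97 to 56.5 CPM at or below the median and from 17.3 to 44.4 CPM above it, with means of 35.5 ± 15.01 and 25.8 ± 8.57 CPM, and the 2 ranges overlapped. It was lower above the median in 5 of 8 pools, and the 3 pools in which it was not (SPF pool 1 and CVT pools 3 and 4) held 4 to 9 UMIs of it on each side. The fit gave -0.78 ± 0.19 (edgeR adjusted p = 0.00173, 0.0499 without SPF pool 8), and DESeq2 did not call it (-0.61, adjusted p = 0.286). Ccnd2 differed by -0.16 ± 0.06 (426 ± 44.1 and 389 ± 38.2 CPM, adjusted p = 0.0437, lower in 6 of 8 pools). That call was lost with DESeq2, without the pool as a block, without the filter on low counts, and without SPF pools 2 or 8 or any of CVT pools 3 to 6 (adjusted p between 0.0574 and 0.358). Ccnd1, Ccnd3 and Cdkn1b did not pass, and Cdkn1a and Cdkn2c were too low to be tested. Of 16 tested stem cell markers 11 were lower above the median (list median -0.37), as were 7 of 13 handling stress genes, of which 2 were higher, and their part in these differences was not tested.

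**Figure D4:**
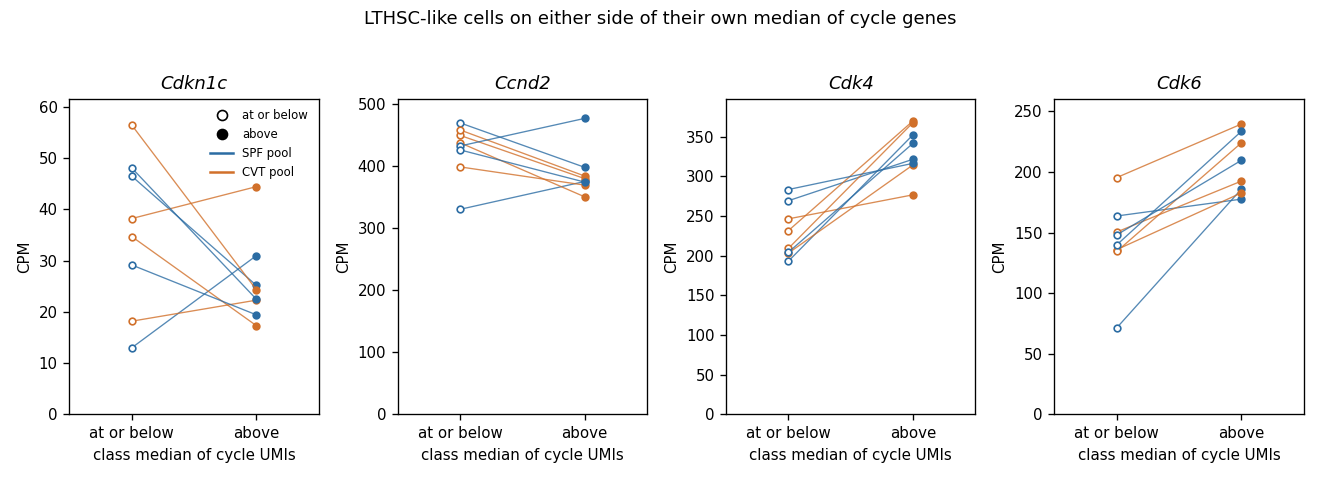
Level of 4 of the genes in LTHSC-like cells at or below and above the class median of cycle gene UMIs, in CPM. A line joins the cells of 1 of 8 pools, blue for SPF and orange for CVT. Cdk4 and Cdk6 rise in every pool, on average from 230 to 333 and from 142 to 206 CPM, while Ccnd2 and Cdkn1c lines cross.

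Levels of Cdk4 and Cdk6 were also read among low cells alone, without a test. Low took in every cell with at most 9 cycle gene UMIs, and the classes were not matched within that range. Low LTHSC-like cells held 154 ± 24 CPM of Cdk6 and 246 ± 26 CPM of Cdk4, against 449 ± 65 and 314 ± 29 CPM in low MPP-like cells. In low CMP-like cells Cdk4 was at 237 ± 13 CPM and Cdk6 at 629 ± 81 CPM. Cdkn1c stood at 34.0 ± 9.3 CPM in low LTHSC-like cells and between 0.275 and 3.48 CPM in low cells of the other 5 classes.

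The housing comparison asked whether 1 month of co-housing moved these genes. No member passed in any population, as fitted on all 8 pools with the filter on low counts, by edgeR's quasi-likelihood test, where 9 members were tested in all KL cells and in LTHSC-like cells and 8 in each other class. Nor did nearly any gene: 0 of 13092 genes passed in KL cells (0%), with 921 at an unadjusted p under 0.05 and 13 called by DESeq2, and 1 of 7623 (0.0131%) in LTHSC-like cells, the chemokine gene Ccl5 (log2 2.98 ± 0.40, adjusted p = 0.000391). In MPP-like, LMPP-like, CMP-like, MEP-like and GMP-like cells 0 genes (0%) passed, with 550, 485, 428, 477 and 586 at an unadjusted p under 0.05. Ccnd1 alone passed in any alternative, in MEP-like cells (3.53 ± 1.37 CPM in CVT and 10.4 ± 6.42 CPM in SPF pools, log2 -1.38 ± 0.41, adjusted p = 0.997) without the filter on low counts (0.000495) or without SPF pool 8 (-1.82, 0.0450), and in GMP-like cells without the filter (0.0332). In LTHSC-like cells the member differences, CVT minus SPF, ran from -0.20 ± 0.23 for Cdkn2c to 0.70 ± 0.40 for Cdkn1a, the gene with 1 to 21 UMIs a pool there. Cdkn1c was at 32.6 ± 10.5 CPM in CVT and 29.2 ± 6.93 CPM in SPF pools (n = 4 each), and the SPF range (21.2 to 35.2 CPM) lay inside the CVT range (20.02 to 41.4 CPM).

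In all KL cells Ccnd1 and Ccnd2 were lower in each CVT pool than in each SPF pool. Ccnd1 stood at 11.7, 10.2, 11.5 and 12.2 CPM in CVT pools 3 to 6 and at 19.9, 20.03, 15.7 and 12.5 CPM in SPF pools 1, 2, 7 and 8. The gap between the groups was small, from 12.2 to 12.5 CPM. Ccnd2 stood at 194, 193, 205 and 199 CPM in CVT and at 226, 227, 228 and 231 CPM in SPF pools, so that the groups lay well apart. An exact two-sided permutation test, with 70 ways to regroup the pools, gave p = 0.0286 for each, the smallest p that 4 against 4 pools can give, but edgeR's adjusted p over all genes was 0.636 for Ccnd1 (log2 -0.52 ± 0.14) and 0.66 for Ccnd2 (-0.16 ± 0.05). Of 13011 genes with at least 80 UMIs, 6.13% had groups that did not overlap in this way, and 5.22% were lower in every CVT pool.

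**Figure D5:**
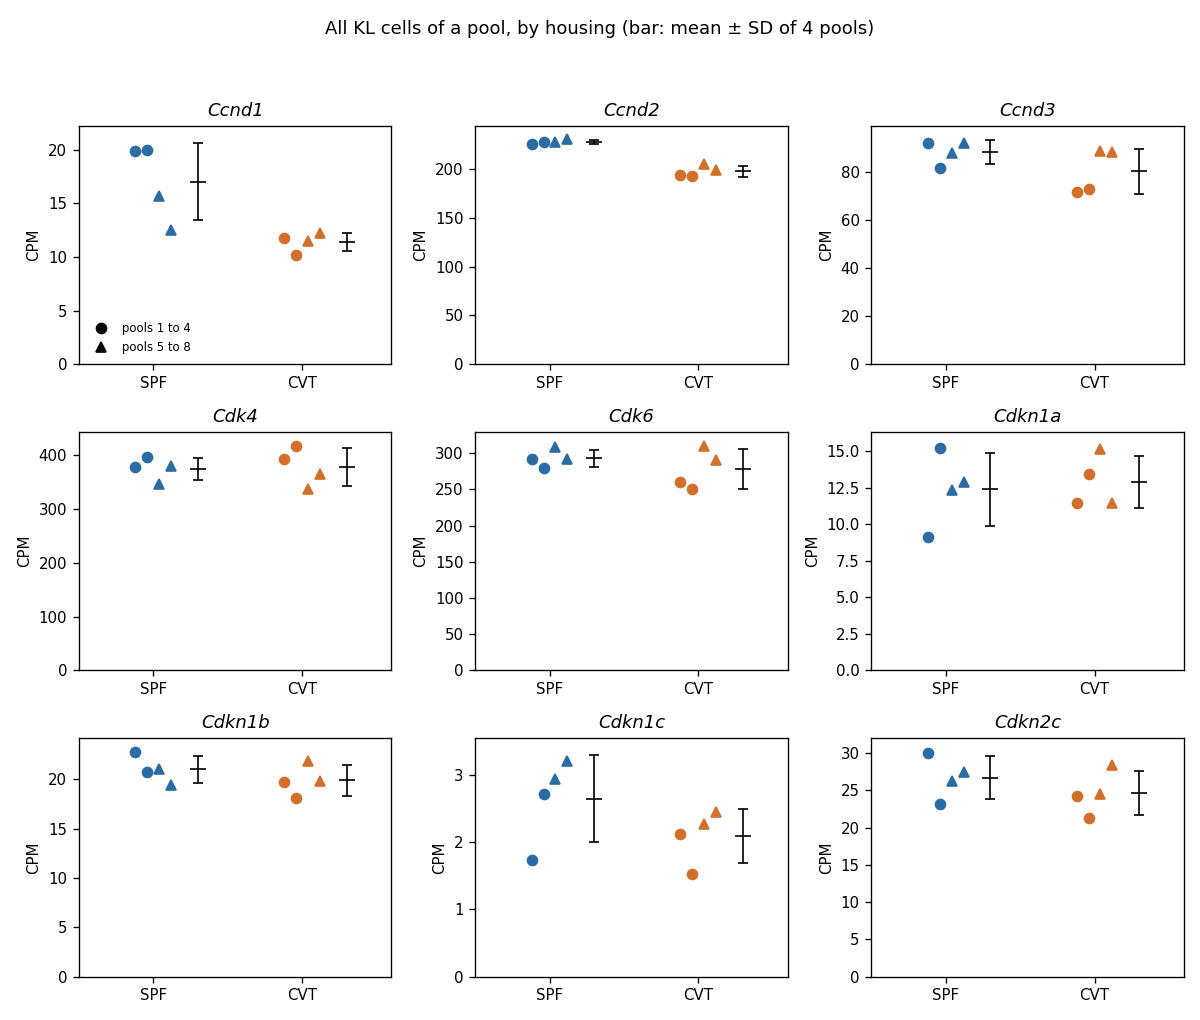
Level of the 9 genes in all KL cells of each pool, in CPM, with SPF and CVT pools side by side, pools 1 to 4 as circles and 5 to 8 as triangles, and the mean and SD of 4 pools as bars. The groups do not overlap for Ccnd1 (10.2 to 12.2 against 12.5 to 20.03 CPM) and Ccnd2 (193 to 205 against 226 to 231 CPM), and no gene passes edgeR's adjusted p.

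Mean shares of some classes also differed between the groups. LTHSC-like cells, where Ccnd2 was highest, were 3.22% ± 1.93 of CVT and 5.93% ± 1.42 of SPF cells, with pools that overlapped (1.51 to 5.05% and 4.71 to 7.98%). GMP-like cells, where Ccnd2 was low, were 13.9% ± 3.67 and 8.64% ± 0.86. LMPP-like cells, where Ccnd1 was highest of the 6 classes, were 6.16% ± 0.75 and 7.81% ± 1.41, and their pools overlapped too. Whether makeup lies behind the gaps in Ccnd1 and Ccnd2 was not tested. With the same weight for each of the 6 classes Ccnd2 was still lower in every CVT pool (268 ± 1.64 against 294 ± 9.89 CPM), while Ccnd1 overlapped (13.9 ± 1.29 against 18.8 ± 4.88 CPM, exact p = 0.143). Within single classes Ccnd2 lay apart in CMP-like cells (330 ± 18.8 against 371 ± 9.63 CPM, where 3.65% of genes did) and differed by less than the spread between pools in LTHSC-like cells (407 ± 17.6 against 408 ± 42.8 CPM). Ccnd1 lay apart in GMP-like cells (8.60 ± 1.38 against 14.1 ± 2.09 CPM, where 4.5% of genes did). Without the dendritic-like cluster, the cells highest in Ccnd1, the KL values of Ccnd1 were 11.1 ± 0.83 and 16.4 ± 3.58 CPM.

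Pools 1 to 4 held mice 1 to 10 and pools 5 to 8 mice 11 to 20, with 2 pools per housing group in each set. Within the first set Ccnd1 was 10.95 CPM in CVT and 19.96 in SPF pools, and within the second 11.9 and 14.1. Ccnd2 was 193 against 227 and 202 against 229 CPM. Of 103 tests of a member's housing effect between pool sets or between LTHSC-like cells and another class, 0 passed an adjusted p of 0.05 and 9 had an unadjusted p under it. The share of cells low in cycle genes was 33.6% ± 5.85 in CVT and 41.6% ± 6.42 in SPF pools (exact permutation p = 0.143, adjusted 0.5) and 84.0% ± 5.73 and 83.9% ± 1.24 in LTHSC-like cells.

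Finally, the genes most like each member were sought over the 48 sums of 6 classes and 8 pools, by Pearson's r of log2(CPM + 1) among 10385 genes. These sums share libraries, clustering and class composition, so r is a description. Cdkn1c was closest to Trpc6 (0.927), F11r (0.923) and Gucy1a3 (0.919), and Ccnd2 to Zfand5 (0.965), Atat1 and Mycbp2. Cdk4 was close to Nmral1 (0.909) and to Gins2 (0.907), a subunit of the replication helicase. Cdk6 was closest to Tgfb1 (0.894), Btnl9 and Siglecf, Cdkn1b to the nuclear RNA Malat1 (0.916), Gltscr2 and Ddit4, Cdkn1a to Tm6sf1 (0.914), H2afy and Slc39a6, Ccnd1 to Nsmce1 (0.844), Sytl1 and Dync2li1, and Ccnd3 to Gulp1 (0.864), Smad3 and Gbp2. Cdkn2c had no close match, with Asap1 at 0.638 as its nearest. Among the members themselves, Ccnd2 ran with Cdkn1b (0.809), Ccnd3 (0.744) and Cdkn1c (0.741) and against Cdk4 (-0.601).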

How the data were processed

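Single KL cells of 8 pools were profiled with a droplet kit for transcript 3' ends. The deposited counts are UMI counts per gene and cell, whole numbers without normalization, made by the authors with Cell Ranger (version not given in the sources used here; the submitters' processing notes name the mm9 build). Every column of values was used, so 0 were left out. Each cell held between 2759 and 49732 UMIs. The p-values measure the spread between pools.

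Counts were scaled per cell and log-transformed, and 1000 variable genes without the 9 members were reduced to 30 principal components and clustered (30 neighbours, Leiden resolution 2) with scanpy 1.11.5, leidenalg 0.10.2 and igraph 0.11.9, under Python 3.11.15. A cluster was named from at least 3 markers among its 100 most specific genes. Scrublet marked 25 cells (0.0836%), too few to have worked, so doublets were kept and the 5% of cells with the highest scores removed as an alternative. UMIs were summed per pool, per class and pool, or per class, state and pool (at least 20 cells), filtered with filterByExpr, and tested with edgeR 4.0.16 (TMM, glmQLFit, glmQLFTest, R 4.3.3) at an adjusted p of 0.05. The classes and states of a pool come from the same mice and library, so the pool was a block in those fits. edgeR was tested on simulated data with 200 changed genes. Single values per pool were compared by exact permutation over 70 regroupings.

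The members and the lists were chosen with earlier results of these data known. Named are all 9 members, up to 4 genes per partner list and comparison with the largest change among those that passed, and the 3 genes most like each member, of which 1 is not reported here. Other genes in the text lead a cluster or are the 1 gene called between housing groups. Alternatives were DESeq2 1.42.0, RLE scaling, genes of low counts kept, no block or a block for pool sets, resolution 1, clustering without the 92 cycle genes, only cells with 1000 or more genes and no more than 10% mitochondrial UMIs, doublets removed, stricter limits of 7 and 23 UMIs for the cycle states, and each pool left out. The removal of the highest doublet scores, cells of the 6 classes only, equal weight of classes and the division of LTHSC-like cells at their median were chosen after seeing the data.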

Additional observations from a re-analysis of the deposited data

Results flagged for a closer look

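Among 102 groups of 4 pools, 1 for each member and population with at least 20 UMIs in each pool or for each share of cells low in cycle genes, 14 held a pool whose gap to the others passed Dixon's critical value of 0.829. Chance gives about 1 in 20 such groups, and values of a pool recur in several.

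SPF pool 2 was the farthest of its group 4 times. It had 354 CPM of Cdk6 in MPP-like cells where the other 3 SPF pools had 432 to 436, 39.2 CPM of Cdkn1a in LMPP-like cells (others 22.1 to 24.04), 19.8 CPM of Cdkn1a in GMP-like cells (others 12.1 to 12.7) and 13.7 CPM of Cdkn2c in GMP-like cells (others 15.003 to 15.2). Both Cdkn1a values were high in the same pool, in classes that share no cells. SPF pool 7 was the farthest 3 times, with 723 CPM of Cdk6 in CMP-like cells (others 532 to 560), 199 CPM of Ccnd2 in MEP-like cells (others 152 to 157) and 408 CPM of Cdk4 in MEP-like cells (others 441 to 446). SPF pool 1 had 15.3 CPM of Cdkn1b in MEP-like cells (others 11.2 to 11.8).

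Of the CVT pools, pool 3 had 428 CPM of Cdk4 in MPP-like cells (others 379 to 385) and 38.7 CPM of Ccnd1 in LMPP-like cells (others 29.1 to 30.1). Pool 4 had 143 CPM of Ccnd3 in LTHSC-like cells (others 89.0 to 97.5). Pool 5 had 262 CPM of Cdk6 in LMPP-like cells (others 212 to 220.0) and 69.2% of CMP-like cells low in cycle genes (others 60.3 to 61.7). Pool 6 had 27.3% of MPP-like cells low in cycle genes (others 33.3 to 33.7). No interaction of housing with pool set or class passed for a member.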

How the results depend on the processing

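Of 2319 alternative values, 2213 kept their side of the threshold (for counts, stayed within 1.5 times), 42 moved, 29 gained and 29 lost a call, and 6 turned. A change of direction counted as a turn only where the main or the alternative value passed. Values that did not pass could change direction, as did Ccnd1 between housing groups in LTHSC-like cells (-0.46 to 0.27 with a pool left out). With the coarser clusters (resolution 1) Cdkn2c in LTHSC-like minus LMPP-like cells was -0.33, Ccnd2 and Cdk4 in LTHSC-like minus CMP-like cells were -0.32 and 0.10, and Ccnd2 and Ccnd1 in high minus low LMPP-like cells were -0.42 and -0.63. Clustering without cycle genes gave 0.044 for Cdk6 in high minus low MPP-like cells. The cause was not tested. The clusters made without cycle genes also gained calls for Cdk4 (-0.17, LTHSC-like minus CMP-like cells), for Ccnd2 (0.13, LTHSC-like minus LMPP-like cells) and, between high and low cells, for Ccnd2 in MPP-like (-0.18) and GMP-like (-0.17), Cdk4 (0.16) and Cdkn1b (-0.58) in GMP-like and Cdkn2c (0.68) and Cdkn1b (-0.72) in CMP-like cells. The coarser clusters gained Ccnd3 (0.20) against CMP-like and Cdkn1b (0.41) against LMPP-like cells. Cdkn1c in LTHSC-like cells kept its direction and call against all 5 classes in each alternative.

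Genes called between housing groups numbered 13 in KL, 1 in CMP-like and 2 in MEP-like cells with DESeq2. Without the filter on low counts they numbered 25, 49, 29, 32, 15 and 29 in LTHSC-, MPP-, LMPP-, CMP-, MEP- and GMP-like cells. With pool sets as a block they numbered 4 in KL, 11 in MPP-like, 3 in CMP-like and 1 in GMP-like cells, and with resolution 1 they were 0 in LTHSC-like, 1 in LMPP-like and 2 in CMP-like cells. With a pool left out the ranges were 0 to 9 (MPP-like), 0 to 6 (LMPP-like), 0 to 3 (CMP-like), 0 to 1 (MEP-like) and 0 to 1 (GMP-like), with 0 throughout in KL cells and 1 in LTHSC-like cells.

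Genes called between LTHSC-like and MPP-like cells fell from 5237 to 3264 without cycle genes in the clustering. Between high and low cells DESeq2 called 1069 (MPP-like), 1430 (LMPP-like), 1253 (CMP-like) and 622 (GMP-like), against 1805, 2547, 2153 and 1142 by edgeR. Clusters without cycle genes gave 2940 in MPP-like and 3486 in CMP-like cells, resolution 1 gave 4644 in LMPP-like cells and limits of 7 and 23 cycle gene UMIs in place of 9 and 20 gave 588 in GMP-like cells. Without the replicate block of pools, 738 genes were called in GMP-like cells and 406 in the divided LTHSC-like class (638 with it, 262 by DESeq2). The block changed the call of 2 members, Ccnd1 between LTHSC-like and LMPP-like cells and Ccnd2 in the divided LTHSC-like class, and of no other member.

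Depth limits Cdkn1c outside LTHSC-like cells and Cdkn1a within them most. Whether fewer cells of a kind or less RNA per cell lies behind a level in all KL cells was not tested.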
